A study of Drosophila melanogaster with 16 samples.

Results

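The 16 single-embryo libraries carry no sex label, but they fell into 2 classes by the balance of msl-2 and Sxl, and 5 of the 16 were female-like. The classes were chosen by one value per embryo, the log2 normalized count of msl-2 minus that of Sxl: embryos below -3.0 were called female-like and the other 11 male-like. Female-like were 1 of 5 Asx0 embryos (replicate 1), 1 of 4 SceI48A embryos (replicate 2), 2 of the 3 wild-type embryos set beside Asx0 (replicates 1 and 3) and 1 of the 4 wild-type embryos set beside SceI48A (replicate 3). The names describe this balance of 2 transcripts, since the sex of the embryos is not given in the sources used here.

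In Drosophila, sex follows from the number of X chromosomes. X-linked transcription factors called signal elements switch on Sex-lethal (Sxl) in females, and Sxl, an RNA-binding splicing regulator, then maintains its own female-specific splicing. Sxl directs female splicing of transformer (tra), which with tra2 sets the splicing of doublesex (dsx) and fruitless (fru), and it keeps male-specific lethal 2 (msl-2) from being produced in females. In males MSL2 assembles with MSL1, MSL3, the helicase MLE, the histone acetyltransferase MOF and the roX RNAs into the dosage compensation complex, which raises transcription of the single male X. roX1 and roX2 were not analysed here.

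Each library was poly(A) RNA from 1 embryo at stage 16, 15 to 16 h old. Asx0 embryos were homozygous for a null allele of Additional sex combs, a subunit of the Polycomb deubiquitinase, and were the progeny of heterozygous parents, so that only the zygotic product was lost. They carried a y+ transgene and were picked as GFP-negative siblings of embryos bearing a CyO twi-Gal4 UAS-GFP balancer. SceI48A embryos had neither maternal nor zygotic wild-type Sce, the catalytic PRC1 subunit, and carried in its place a transgene for the catalytically dead I48A protein. Their parents carried nos-Gal4VP16 and UAS-Flp, which excise a rescuing Sce+ copy in the parental germline, and the embryos were likewise picked by the absence of GFP. Wild-type embryos were Oregon-R. The study had picked these libraries from a larger set by morphology and by principal component analysis, which is itself a selection on expression.

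Values were given in 2 tables, 1 for Asx0 with its wild-type embryos and 1 for SceI48A with its own, each normalized separately. Levels therefore differed between tables, and all class differences were formed within groups of a table. Read totals cannot be recovered from these values, so the depth behind each is unknown, and the values were shrunken at low counts, so that differences of low genes are understated. Nothing in the labels places the replicate embryos in separate collections. The p-values therefore set a class difference against the spread among these embryos within their groups, not among collections.

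The 2 genes that set the classes are given first as a description, with no test. msl-2 (2L, 3462218 to 3466112, minus strand, dm6) stood at 8.31 in the female-like Asx0 embryo, against 8.99, 9.16, 9.13 and 9.14 in the male-like Asx0 embryos. It stood at 8.24 and 8.37 in the female-like wild-type embryos of the same table, against 9.09 in the male-like one. Beside SceI48A it was 9.03 in the female-like mutant and 8.76 in the female-like wild-type embryo, against 9.810 to 9.996 in male-like mutants and 9.73 to 9.88 in male-like wild-type embryos. Within each table msl-2 was lower in every female-like embryo than in any male-like one.

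Sxl (X, 7074550 to 7098053, minus strand) ran the other way. It stood at 11.999 in the female-like Asx0 embryo and 12.18 and 12.26 in female-like wild-type embryos, against 11.50 to 11.59 in male-like Asx0 embryos and 11.47 in the male-like wild-type embryo. The SceI48A table gave 12.77 in the female-like mutant and 12.70 in the female-like wild-type embryo, against 11.998 to 12.14 in male-like mutants and 11.61 to 12.04 in male-like wild-type embryos. The highest female-like balance was -3.69, in Asx0 replicate 1, and the lowest male-like balance was -2.53, in Asx0 replicate 2, so a gap of 1.15 lay between the classes. Averaged over groups, msl-2 was 0.87 lower and Sxl 0.67 higher on the log2 scale in female-like embryos. These counts cover all transcripts of a gene and do not distinguish spliced forms.

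**Figure D1:**
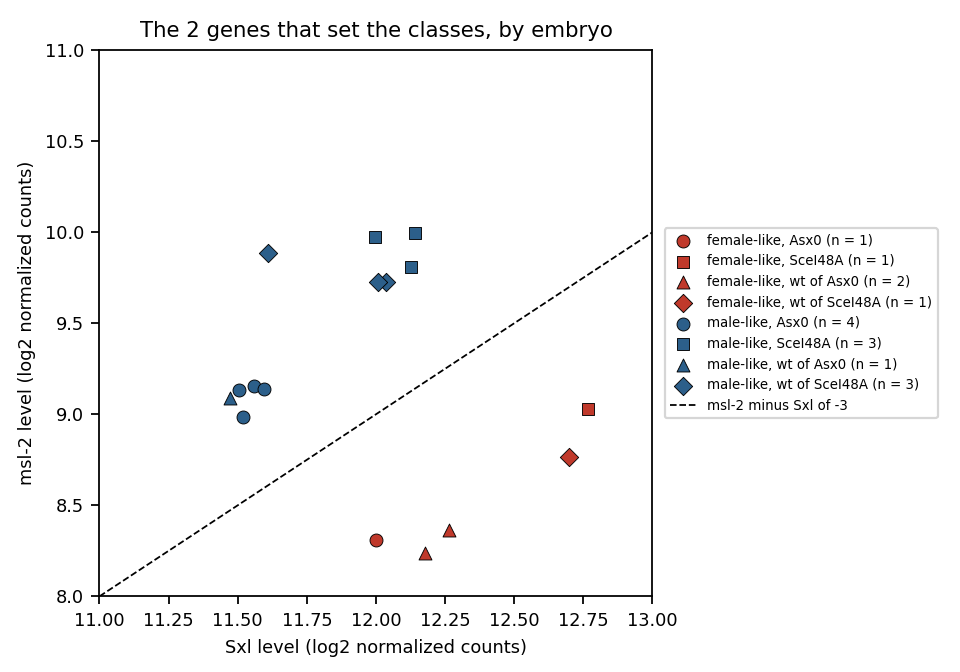
Level of msl-2 against level of Sxl (both log2 normalized counts), 1 point per embryo, with color for class and shape for group. The 5 female-like embryos lie below the dashed line, where msl-2 minus Sxl equals -3.0, and the 11 male-like embryos above it.

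Which other transcripts separated with these classes was asked with limma across the 10067 genes that remained after a filter of a mean of at least 10 normalized counts in both tables, with msl-2 and Sxl left out and with a separate mean for each of the 4 groups. Because the classes came from the same libraries, the p-values measure how closely a gene moved with the 2 marker genes. At a Benjamini-Hochberg adjusted p below 0.05, 24 genes were called, 0.238% of those tested. Of these, 15 were higher in female-like embryos (0.149%) and 9 were lower (0.0894%), and at an unadjusted p below 0.05 there were 726 genes. No gene, called or not, differed by more than 2-fold on this scale, and the largest difference was 0.75. The number of calls hung on single embryos: it was 1 without Asx0 replicate 1, 2 without SceI48A replicate 2, 4 without replicate 3 of the wild-type embryos beside SceI48A, 9 without Asx0 replicate 3, and 10 without replicate 2 of the wild-type embryos beside Asx0. It was 12 without replicate 2 of the wild-type embryos beside SceI48A, 13 without SceI48A replicate 4, 14 without replicate 1 of the wild-type embryos beside Asx0, and 15 without either their replicate 3 or Asx0 replicate 4. The 24 genes kept their direction without any single embryo. Each also had the same sign in both tables fitted alone, in the wild-type embryos alone and in the mutants alone. They were picked in the fit over these same embryos, so shared signs in its parts were favored in advance and are no independent support.

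Of the 24 called genes, 18 lay on the X chromosome, 13 of them higher and 5 lower in female-like embryos. That is 1.11% of the 1620 X-linked genes tested, against 0.0721% of the 8327 genes on the arms of chromosomes 2 and 3, where 2 were higher and 4 lower. No gene of chromosome 4 was called among 79 tested.

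**Figure D2:**
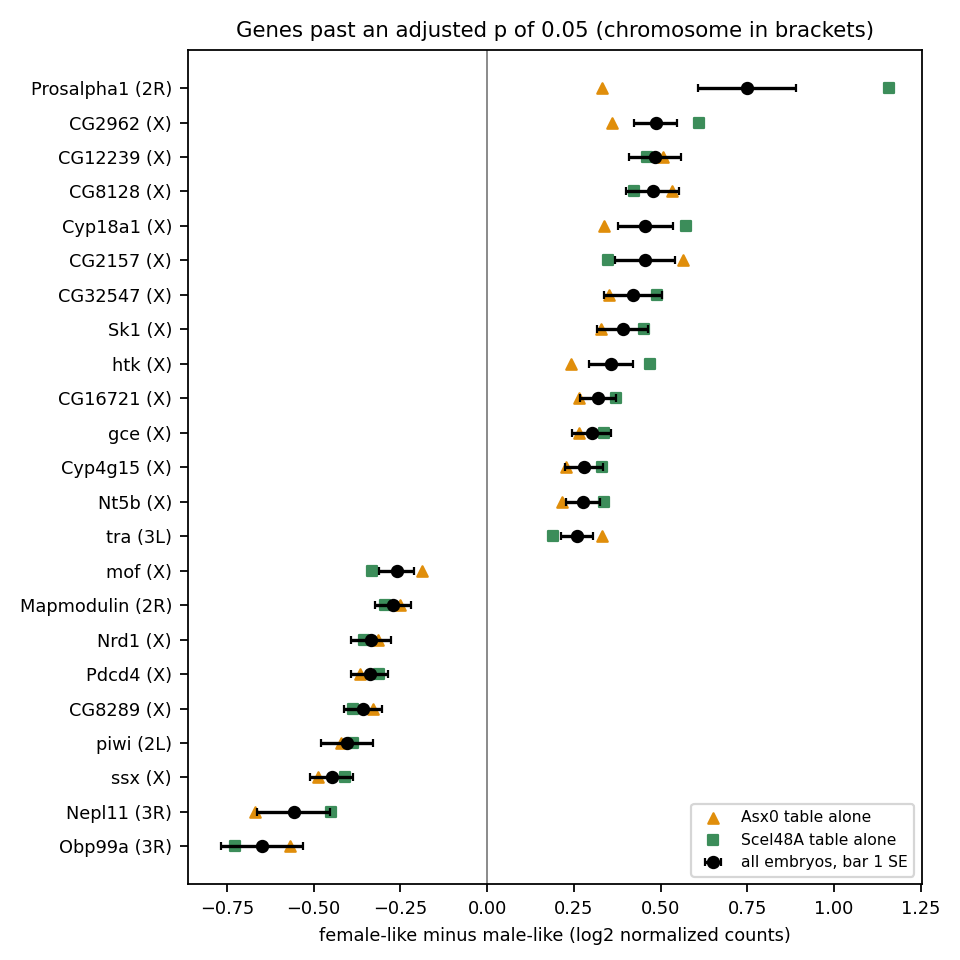
Difference between female-like and male-like embryos (log2 normalized counts) for 23 of the 24 called genes, with the chromosome in brackets. Black points are the fit over all embryos with bars of 1 SE, triangles the Asx0 table alone and squares the SceI48A table alone. All 3 estimates lie on the same side of 0 for every gene drawn, and Prosalpha1 has the widest gap between tables.

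Among genes tied to the sex pathway, sister of Sex-lethal (ssx), tra and mof were called. ssx (X, 1370580 to 1375257, plus strand) encodes an RNA-binding paralog of Sxl, known to counteract Sxl autoregulation in males. Its level was 10.37 in the female-like Asx0 embryo, against 10.76 to 10.95 in the 4 male-like ones, and 10.09 and 10.28 in the female-like wild-type embryos of that table, against 10.66 in the male-like one. For the SceI48A table it was 10.88 in the female-like mutant and 10.91 in the female-like wild-type embryo, against 11.31, 11.39 and 11.47 in male-like mutants and 11.05, 11.22 and 11.39 in male-like wild-type embryos. The classes did not overlap in either table. The difference was -0.45 ± 0.06 (SE) by limma, 0.733-fold, with an adjusted p of 0.00783, and the call was lost without Asx0 replicate 1 or SceI48A replicate 2, where the adjusted p reached at most 0.0770.

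tra (3L, 16590059 to 16591050, minus strand) encodes the splicing factor directly below Sxl. Its level was 6.20 in the female-like Asx0 embryo, against 5.81, 5.88, 5.94 and 5.97 in male-like Asx0 embryos. It was 6.15 and 6.17 in female-like wild-type embryos of that table, against 5.79 in the male-like one. The SceI48A table gave 6.13 in the female-like mutant and 6.10 in the female-like wild-type embryo, against 5.778 to 5.999 in male-like mutants and 5.92 to 6.01 in male-like wild-type embryos. Every female-like embryo exceeded every male-like one, by a small margin in the SceI48A table. The reads of tra are few, with a mean of 66.1 normalized counts in the Asx0 table and 65.0 in the SceI48A table. The difference was 0.26 ± 0.05 (SE), 1.20-fold, with an adjusted p of 0.0312 by limma. tra overlaps the gene l(3)73Ah on the opposite strand, which differed by -0.06 with an adjusted p of 0.92. The call was kept in 8 of the 16 fits that left out 1 embryo, and the adjusted p rose to at most 0.195.

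mof (X, 5873840 to 5876853, minus strand), the histone H4 lysine acetyltransferase of the dosage compensation complex, was lower in female-like embryos. It stood at 7.34 in the female-like Asx0 embryo, against 7.41 to 7.60 in male-like Asx0 embryos, and at 7.17 and 7.22 in female-like wild-type embryos of that table, against 7.39 in the male-like one. The other table gave 8.08 in the female-like mutant and 7.97 in the female-like wild-type embryo, against 8.33 to 8.51 in male-like mutants and 8.25 to 8.32 in male-like wild-type embryos. The classes did not overlap in either table. The difference was -0.26 ± 0.05 (SE) with an adjusted p of 0.0379 by limma, kept in 4 of the 16 fits without 1 embryo (at most 0.318).

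**Figure D3:**
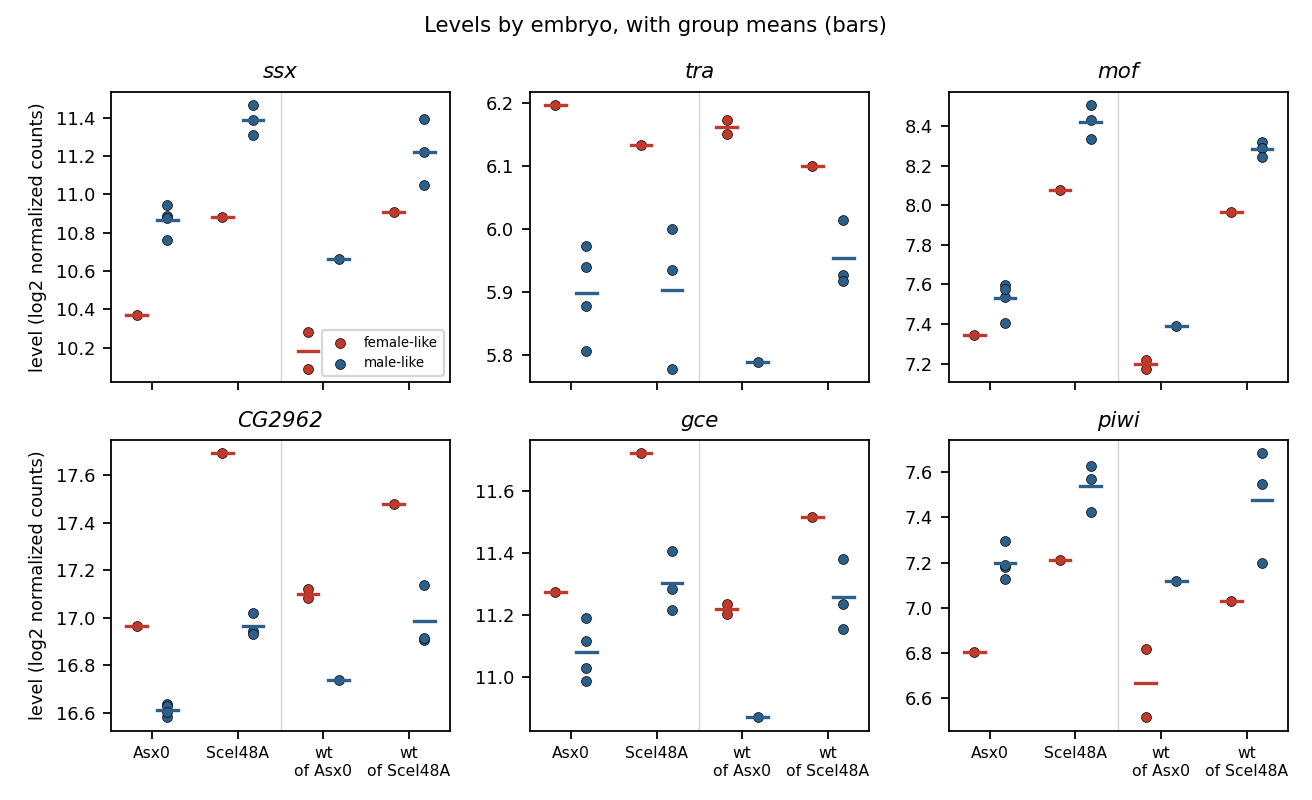
Levels (log2 normalized counts) of 6 called genes by embryo, with female-like embryos left of male-like embryos in each group and bars at the means. The groups are Asx0, SceI48A and the wild-type embryos (wt) of each table. Levels of ssx, mof and piwi are lower, and levels of tra, CG2962 and gce higher, in female-like embryos of every group.

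The sex determination list holds tra, tra2, splicing cofactors of Sxl, genes below tra and further genes such as Abd-B, bab1 and dsf. Of its 18 tested genes, 13 differences were positive and 5 negative, where 49.7% of all genes tested were positive. The median was 0.032 against -0.00060 over all genes tested. tra was the only one called, where 0.149% of all genes tested were called in that direction. The next by p were snf, a U1 and U2 snRNP protein needed for Sxl splicing, at 0.18 ± 0.05 (SE, adjusted p 0.261), tra2, the partner of tra, at 0.12 ± 0.04 (0.517), and dsx at 0.14 ± 0.05 (0.556), none past the limma threshold. dsx was 5.60 in the female-like Asx0 embryo, against 5.58 to 5.70 in male-like ones, so those values overlapped. It was 5.63 and 5.86 in the female-like wild-type embryos beside Asx0, against 5.44 in the male-like one. Beside SceI48A dsx was 5.79 in the female-like mutant, against 5.64 to 5.75 in male-like ones, and 5.92 in the female-like wild-type embryo, against 5.60 to 5.71 in male-like ones, with no overlap in that table. fru differed by -0.0012 and ix, which acts with female DSX, by 0.017. Yp3, a yolk protein gene under female-specific control in adult fat body, differed by -0.0051.

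Among the 11 tested genes of the dosage compensation list, mof was called and 6 differences were negative, where 49.7% of all genes tested were positive. mle had -0.11 ± 0.05 (SE, adjusted p 0.641) and msl-3 had -0.14 ± 0.06 (0.647), neither past the limma threshold, and msl-1 had -0.031 ± 0.055. Levels of mle in the female-like mutants, 10.28 in Asx0 and 10.86 in SceI48A, lay just below the lowest male-like embryo of their group, at 10.35 and 10.89, while in the wild-type embryos beside SceI48A the classes overlapped, with 10.88 against 10.82 to 10.98 in male-like ones. Clamp, a factor that recruits the complex to the X, differed by -0.0029, and JIL-1, a histone H3 kinase enriched on the male X, by 0.087 with an adjusted p of 0.816. Of the X-signal elements and other regulators of early Sxl transcription, 9 of 11 passed the filter and none was called, with differences of -0.034 (upd1) to 0.092 (gro). The share called over all genes tested was 0.238%. sisA and sc did not pass the filter.

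Beyond the called genes, the X as a whole stood apart from the autosomes in how many genes moved with the classes. At an unadjusted p below 0.05, 22.3% of X-linked genes (361 of 1620) and 4.30% of genes on chromosomes 2 and 3 (358 of 8327) differed. The share was between 16.6% and 23.9% on the X and between 2.79% and 4.95% on the autosomes in every fit that left out 1 embryo. The X-linked differences went both ways. Their median was 0.020, the middle 50% ran between -0.046 and 0.092, and 57.9% were positive, against a median of -0.0024 and 48.3% positive on the autosomes.

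The shift of the X differed with the level of the gene, taken as its mean in the Asx0 table. Among X-linked genes with a mean of 10 to 50 normalized counts, the median difference was -0.0072 with 46.3% positive, and among those of 50 to 200 it was 0.0055 with 52.1% positive. It was 0.013 between 200 and 1000, 0.051 with 66.2% positive between 1000 and 5000, and 0.045 with 72.0% positive above 5000. The autosomes gave -0.0088, -0.0067, -0.0026, 0.0066 and 0.011 over the same 5 ranges. In each range the X median lay above the autosomal one, by the least in the lowest range. The cause of this dependence on level was not tested.

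**Figure D4:**
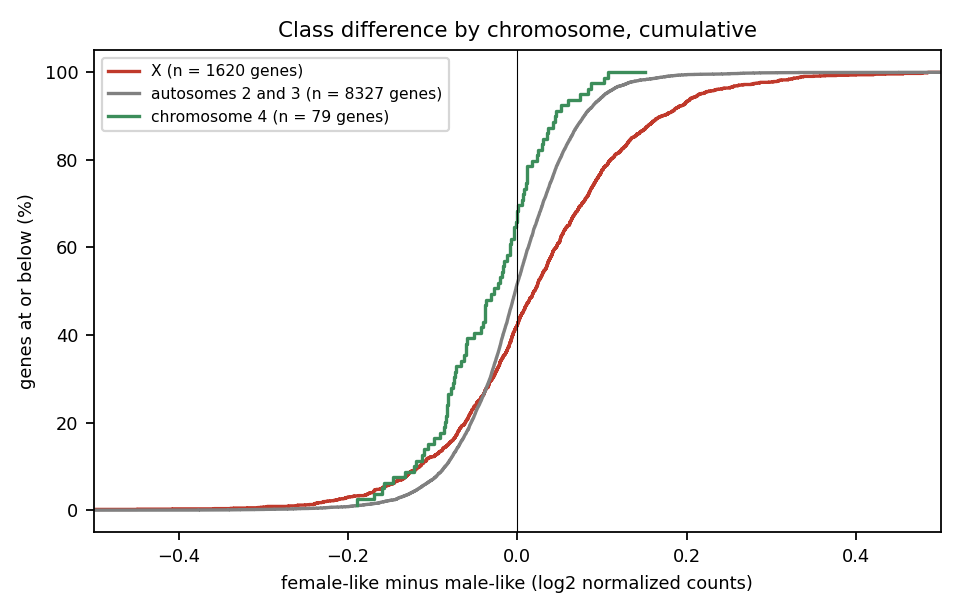
Cumulative share of genes (%) by their difference between female-like and male-like embryos (log2 normalized counts), for the X, the arms of chromosomes 2 and 3, and chromosome 4. The X curve is wider than the autosomal curve on both sides and is shifted right, with medians of 0.020 on the X and -0.0024 on the autosomes, and a few genes beyond the ends of the axis are not drawn.

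Because the 2 tables share no embryo, genes picked in one could be read in the other. Of 273 X-linked genes with an unadjusted p below 0.05 in the Asx0 table alone, 240 (87.9%) had the same sign in the SceI48A table, and 62 also had p below 0.05 there with the same sign, against 0 with the opposite sign. Of 380 genes on chromosomes 2 and 3 picked the same way, 249 (65.5%) kept their sign, 25 with p below 0.05 and the same sign and 5 with the opposite sign. Read from the SceI48A table to the Asx0 table, 145 of 157 X-linked genes (92.4%) and 115 of 176 autosomal genes (65.3%) kept their sign. X-linked genes that were lower in female-like embryos carried over as those that were higher did, with 97 of 114 and 143 of 159 from the Asx0 table, and 37 of 38 and 108 of 119 from the SceI48A table. Genes are not independent replicates, and these shares were not tested.

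The mean level of X-linked genes relative to autosomal genes was compared over embryos as a description. X minus autosome was 0.255 in the female-like Asx0 embryo, against 0.243, 0.254, 0.258 and 0.262 in the male-like Asx0 embryos, where the classes overlapped. It was 0.295 in the female-like SceI48A embryo, against 0.246 to 0.259 in the male-like ones. In wild-type embryos it was 0.264 and 0.261 in the female-like, against 0.224 in the male-like embryo beside Asx0, and 0.275 in the female-like, against 0.219 to 0.254 in the male-like embryos beside SceI48A. With group means removed, the class difference was 0.028 with a residual SD of 0.013.

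Of the called X-linked genes, CG2962 had the smallest adjusted p. CG2962 (X, 10214858 to 10216642, minus strand) stood at 16.97 in the female-like Asx0 embryo, against 16.58 to 16.64 in male-like ones, and at 17.08 and 17.12 in female-like wild-type embryos of that table, against 16.74 in the male-like one. The SceI48A table held 17.69 in the female-like mutant and 17.48 in the female-like wild-type embryo, against 16.93 to 17.02 in male-like mutants and 16.90 to 17.14 in male-like wild-type embryos. The classes did not overlap in either table, and the difference was 0.49 ± 0.06 (SE), 1.40-fold, with an adjusted p of 0.00523 by limma. It was the only gene called in all 16 fits that left out 1 embryo, with adjusted p between 0.00067 and 0.0388. It overlaps ATPsyndelta, an ATP synthase subunit gene on the other strand, which differed by -0.085 (adjusted p 0.906).

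Among the other X-linked genes higher in female-like embryos were Cyp18a1 and gce, which act in hormone turnover and reception. Cyp18a1, the cytochrome P450 that inactivates ecdysteroids, was 12.62 in the female-like Asx0 embryo, against 12.17 to 12.44 in male-like ones, and 13.08 in the female-like SceI48A embryo, against 12.19 to 12.66 in male-like ones. It stood at 12.85 and 12.93 in female-like wild-type embryos beside Asx0, against 12.50 in the male-like one, and at 13.10 in the female-like wild-type embryo beside SceI48A, against 12.41 to 12.64 in male-like ones. Its classes did not overlap within a table, and the difference was 0.46 ± 0.08 (SE, adjusted p 0.0276 by limma). gce, a bHLH-PAS juvenile hormone receptor, was 11.27 in the female-like Asx0 embryo, against 10.99 to 11.19 in male-like ones, and 11.72 in the female-like SceI48A embryo, against 11.22 to 11.41 in male-like ones. It was 11.24 and 11.21 in female-like wild-type embryos beside Asx0, against 10.87 in the male-like one, and 11.51 in the female-like wild-type embryo beside SceI48A, against 11.16 to 11.38 in male-like ones, with a difference of 0.30 ± 0.06 (adjusted p 0.0342). Of the 16 fits that left out 1 embryo, 12 kept the call of Cyp18a1 and 6 that of gce. The 2 genes were set side by side after their values were seen, and hormone genes were not among the lists.

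Other X-linked genes were higher by 0.28 to 0.48. Sk1, a sphingosine kinase, had a difference of 0.39, Cyp4g15, a cytochrome P450, 0.28, and Nt5b, a nucleotidase, 0.28. htk differed by 0.36. CG12239, CG8128, CG2157, CG32547 and CG16721, which have no named product in the files, had 0.48, 0.48, 0.46, 0.42 and 0.32. Of the 16 fits that left out 1 embryo, 2 kept the call of Cyp4g15, 3 that of CG32547, 5 that of CG2157 and 7 that of Sk1. The call was kept in 10 for htk, 12 for Nt5b and 13 each for CG12239, CG8128 and CG16721. CG16721 lies 3.02 kb from mof, the nearest called neighbor on the X, and the pair differed in opposite directions. Nt5b and CG32547 lay 32.9 kb apart, and Sk1 and Cyp4g15 31.0 kb apart, each pair with positive differences. CG2157 overlaps CG1637, which had the opposite sign, -0.17 (unadjusted p 0.0192, adjusted p 0.539 by limma).

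The X-linked genes lower in female-like embryos, beside ssx and mof, were CG8289, Pdcd4 and Nrd1. CG8289 stood at 9.71 in the female-like Asx0 embryo, against 9.94 to 10.09 in male-like ones, and at 10.11 in the female-like SceI48A embryo, against 10.39 to 10.60 in male-like ones, with a difference of -0.36 ± 0.05 (SE, adjusted p 0.0131 by limma). Pdcd4, a translation repressor that binds eIF4A, stood at 10.34 in the female-like Asx0 embryo, against 10.62 to 10.88 in male-like ones, and at 11.07 in the female-like SceI48A embryo, against 11.30 to 11.47 in male-like ones, with a difference of -0.34 ± 0.05 (adjusted p 0.0145). In the Asx0 table its classes overlapped, since the female-like wild-type embryos had 10.72 and 10.69. Nrd1, a nardilysin-type metallopeptidase, stood at 9.04 and 9.47 in the female-like mutants, against 9.35 to 9.44 and 9.95 to 10.08 in the male-like mutants of Asx0 and SceI48A, with a difference of -0.33 ± 0.06 (adjusted p 0.0239). The calls of CG8289 and Pdcd4 were lost without Asx0 replicate 1, SceI48A replicate 2 or replicate 3 of the wild-type embryos beside SceI48A, and the call of Nrd1 without either of those mutants or replicate 2 of the wild-type embryos beside Asx0.

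Of the 6 called genes outside the X, piwi belongs to the germline. piwi (2L, 10982205 to 10987420, minus strand), which encodes the nuclear Argonaute of the piRNA pathway, stood at 6.80 in the female-like Asx0 embryo, against 7.13 to 7.30 in male-like ones. It stood at 6.52 and 6.82 in female-like wild-type embryos of that table, against 7.12 in the male-like one. With SceI48A it was 7.21 in the female-like mutant and 7.03 in the female-like wild-type embryo, against 7.43 to 7.63 in male-like mutants and 7.20 to 7.68 in male-like wild-type embryos. The classes were separate in the Asx0 table and within each group of the SceI48A table. The difference was -0.40 ± 0.07 (SE), 0.756-fold, with an adjusted p of 0.0342 by limma, and the call was kept in 5 of the 16 fits without 1 embryo (at most 0.210). piwi overlaps SCAR on the opposite strand, which differed by -0.0069 (adjusted p 0.995 by limma).

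The germline list, 20 tested genes for piRNA factors, germ plasm and germ cell development, had 18 negative and 2 positive differences. Of all genes tested, 49.7% were positive. In the fit and in both tables alone 14 genes of the list were negative, and the share of all genes that were is not given here. The list was chosen with earlier results of these data known. Its median was -0.10, against -0.00060 over all genes tested, with -0.16 in the Asx0 table and -0.085 in the SceI48A table. piwi was the only one called, 0.0894% of all genes tested being called in that direction, and 9 members had an unadjusted p below 0.05, all negative, a threshold passed by 7.21% of all genes tested in either direction. The helicases vas at -0.26 ± 0.06, armi at -0.26 ± 0.07 and spn-E at -0.24 ± 0.07 (SE) had adjusted p of 0.122, 0.233 and 0.240 by limma. The Argonaute aub, at -0.15 ± 0.04, and the Tudor-domain genes krimp, tej and qin, at -0.15, -0.10 and -0.13, had adjusted p of 0.240, 0.190, 0.200 and 0.370. ovo and tud were positive, at 0.069 and 0.043. In a whole-embryo library fewer cells of a type and less RNA per cell cannot be told apart.

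vas, the DEAD-box helicase that marks germ cells, stood at 6.60 in the female-like Asx0 embryo, against 6.79 to 7.05 in male-like ones, and at 6.62 and 6.66 in female-like wild-type embryos of that table, against 6.99 in the male-like one. In the SceI48A table it stood at 7.58 in the female-like mutant, against 7.72 to 8.01 in male-like ones, and at 7.68 in the female-like wild-type embryo, against 7.72 to 7.94 in male-like ones. The classes did not overlap in either table. vas overlaps the genes solo and vig, so reads may be shared. The mean level of the germline list was 6.75 to 6.82 in female-like and 6.89 to 6.97 in male-like embryos of the Asx0 table, and 7.48 to 7.52 in female-like and 7.51 to 7.66 in male-like embryos of the SceI48A table. The classes were thus separate on the mean in the first table and met in the second.

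**Figure D5:**
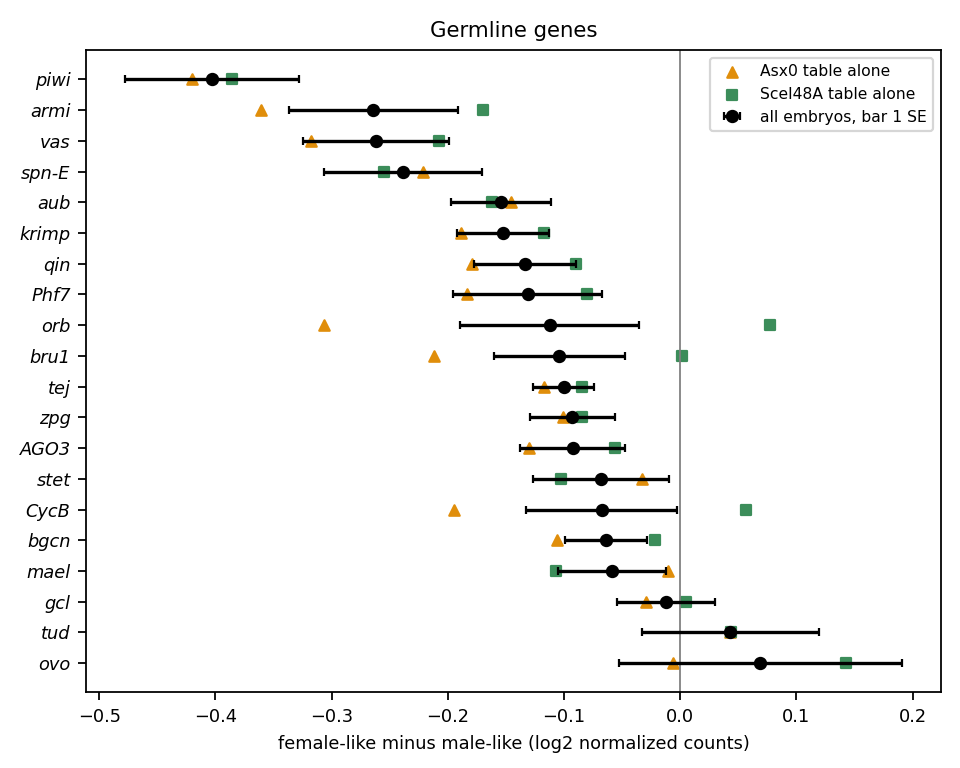
Difference between female-like and male-like embryos (log2 normalized counts) for the 20 tested germline genes. Black points are the fit over all embryos with bars of 1 SE, triangles the Asx0 table alone and squares the SceI48A table alone. The points of 18 genes lie left of 0, piwi farthest at -0.40.

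The somatic gonad list had no such lean. Of its 17 tested genes, 8 differences were positive and 9 negative, with a median of -0.0014 and no call, where 0.238% of all genes tested were called. Sox100B, a transcription factor of male-specific somatic gonad cells, differed by -0.10 ± 0.04 (SE, adjusted p 0.637), tj, a gonad mesoderm factor, by -0.10 ± 0.05 (0.743), and bnb by 0.20 ± 0.08 (0.556), none past the limma threshold. eya, needed for somatic gonad precursors, differed by 0.00069 and esg, which maintains male germline stem cell niche fate, by -0.063.

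The other autosomal calls were Obp99a, Nepl11 and Mapmodulin, lower in female-like embryos, and Prosalpha1 and tra, higher. Obp99a, an odorant-binding protein gene, stood at 8.88 in the female-like Asx0 embryo, against 9.35 to 9.86 in male-like ones, and at 10.08 in the female-like SceI48A embryo, against 10.47 to 11.08 in male-like ones, with a difference of -0.65 ± 0.12 (SE, adjusted p 0.0312 by limma). Nepl11, a neprilysin-like peptidase gene, had -0.56 ± 0.11 and Mapmodulin, of the ANP32 family, -0.27 ± 0.05, both with an adjusted p of 0.0342. Of the 16 fits that left out 1 embryo, 9 kept the call of Obp99a, 5 that of Nepl11 and 3 that of Mapmodulin. Nepl11 overlaps cpx, a synaptic gene at -0.020, and its levels were 10.66 in the female-like Asx0 embryo, against 11.21 to 11.67 in male-like ones, and 10.59 in the female-like SceI48A embryo, against 10.63 to 11.08 in male-like ones.

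Prosalpha1, a 20S proteasome subunit gene, had the widest difference, 0.75 ± 0.14 (SE, adjusted p 0.0342 by limma), and its values fell into separate levels that did not follow the classes in the Asx0 table. In the SceI48A table it was 6.27 in the female-like mutant and 6.34 in the female-like wild-type embryo, against 5.13 to 5.16 in all 6 male-like embryos. In the Asx0 table the female-like embryos had 5.45 (Asx0), 4.90 and 5.56 (wild type), against 5.50, 4.92, 5.14 and 4.92 in male-like Asx0 embryos and 4.89 in the male-like wild-type embryo. Its difference was 0.33 in the Asx0 table and 1.16 in the SceI48A table, and its call was kept in 5 of the 16 fits without 1 embryo. With a mean of 42.7 and 76.2 normalized counts and an overlap with phr on the opposite strand, its reads are few.

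Y-linked genes, which only males carry, were nearly all at or near 0. Of 23 Y-linked genes in the tables, 12 had a mean of 0 in both and 1, FDY, passed the filter. FDY stood at 5.44 in the female-like Asx0 embryo, against 5.87, 6.47, 6.02 and 6.77 in the male-like ones, and at 5.41 and 5.37 in female-like wild-type embryos of that table, against 5.57 in the male-like one. In the SceI48A table it stood at 5.37 in the female-like mutant and 5.36 in the female-like wild-type embryo, against 5.92, 5.73 and 6.13 in male-like mutants and 5.40, 5.44 and 5.45 in male-like wild-type embryos. The classes did not overlap in either table, but the margin in the SceI48A table was small, with 5.37 in the highest female-like and 5.40 in the lowest male-like embryo. Male-like mutants had higher values than male-like wild-type embryos, a contrast that was not tested. FDY was not called, at -0.43 ± 0.14 (SE, adjusted p 0.340 by limma). FDY arose as a copy of the autosomal gene vig2, so reads may be shared, and vig2 differed by 0.11 ± 0.05 (adjusted p 0.716). Stellate repeats, which are silenced by Y-linked piRNAs in the male germline, gave 1 tested member, SteXh:CG42398, at -0.10 ± 0.04 (adjusted p 0.614).

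Counted without a model, 67 genes had every female-like value above or below every male-like value in both tables in the same direction, 0.666% of those tested, 35 of them higher (0.348%) and 32 lower (0.318%) in female-like embryos. On the X these were 29 higher and 14 lower, 2.65% of X-linked genes, against 0.276% on chromosomes 2 and 3, with 6 higher and 17 lower. Of the 24 called genes, 15 were among the 67.

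A test of whether the class difference itself differed between the 2 tables called no gene by limma, with 201 at an unadjusted p below 0.05. Classes were uneven across groups, with 1 of 5 female-like in Asx0 and 2 of 3 in its wild-type embryos, against 1 of 4 in both groups of the SceI48A table. The class difference of tra was 0.26 in mutants and 0.25 in wild-type embryos, and that of ssx was -0.50 in mutants and -0.39 in wild-type embryos. That of mof was -0.26 in both, that of piwi -0.36 in mutants and -0.45 in wild-type embryos, and that of CG2962 0.53 in mutants and 0.43 in wild-type embryos.

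Markers of other tissues and of embryo age were read beside these results. Cuticle protein genes, which are strongly stage-dependent late in embryogenesis, had a median difference of -0.014 over 42 tested genes, muscle genes -0.0040 over 19, fat body genes -0.0091 over 8, haemocyte genes 0.0073 over 12, glial genes -0.033 over 11, salivary gland genes -0.014 over 8 and digestive enzyme genes 0.031 over 13. No gene was called in any of these lists. Of all genes tested 0.238% were called, a share at which lists this small would hold few calls or none. The cuticle list averaged 9.25 to 9.41 in female-like and 9.22 to 9.56 in male-like embryos of the Asx0 table, and 8.58 to 8.60 in female-like and 8.31 to 8.77 in male-like embryos of the SceI48A table, so its classes overlapped in both. Neuronal genes leaned up in female-like embryos, with 16 of 19 positive, against 49.7% of all genes tested, a median of 0.064 and none called. The 2 that were higher at an unadjusted p below 0.05 by limma, Appl (0.18) and cac (0.15), are X-linked. The autosomal Snap25 was lower at that threshold (-0.12). The mean of the neuronal list was 11.93 to 12.002 in female-like and 11.67 to 11.92 in male-like embryos of the SceI48A table, but 11.52 to 11.57 in female-like and 11.41 to 11.62 in male-like embryos of the Asx0 table. The part of neuronal content in the differences above was not tested, nor was the part of X linkage in the neuronal lean.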

How the data were processed

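The authors quantified paired-end reads with Salmon on FlyBase release 6.35 transcripts, summed them to genes and normalized them with DESeq2. The deposited per-embryo values are log2 normalized counts shrunken like a regularized log, and the deposited mean column is a signal of normalized counts averaged by the authors over a table. The deposited tables also hold the authors' log2 fold changes, standard errors, test statistics and p-values for mutant against wild type, which were not used. Each table held 13754 genes, of which 32 IDs had no symbol in release 6.54 (Ensembl 115), the source of coordinates on dm6.

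Classes were assigned at -3.0 on msl-2 minus Sxl. Genes with a mean of at least 10 in both tables were tested with limma 3.58.1 (R 4.3.3; intensity trend, Benjamini-Hochberg adjustment, 4 group means plus the class), an approach checked on simulated data. No count test was possible. Of the 24 called genes 23 were named and 1 is not reported here, and all tested members of the sex pathway, Y-linked and Stellate lists were eligible. Alternatives were filters, a pseudocount, robust variances, quantile normalization, embryo weights, a replicate block, a cuticle covariate, the marker balance in place of classes, subsets and single embryos left out. Reads on overlapping genes were not told apart by strand in the sources used here. The members, lists and tests were chosen with earlier results of these data known.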

Additional observations from a re-analysis of the deposited data

Results flagged for a closer look

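The class difference of 2 called genes differed between tables at an unadjusted p below 0.05 in the limma interaction, and neither passed adjustment over all genes. For Prosalpha1 the difference in the Asx0 table minus that in the SceI48A table was -0.82 (unadjusted p 0.000918), and for CG2962 it was -0.25 (unadjusted p 0.0376). Several Y-linked genes below the expression filter were above the female-like level in some male-like embryos, WDY and CG46192 by the widest margins. Their means were at most 4.89 normalized counts. More embryos were male-like than female-like in each table, which by itself favors a higher male-like maximum. WDY reached 1.71 in the highest male-like embryo of the Asx0 table, against 1.60 in the highest female-like one, and 2.30 in the highest male-like embryo of the SceI48A table, against 2.24 in the highest female-like one. CG46192 reached 0.75 in the highest male-like embryo of the Asx0 table, against 0.69 in the highest female-like one. The margins were smaller for kl-5 (-0.24 in the highest male-like and -0.28 in the highest female-like embryo) and Ppr-Y (0.11 in the highest male-like and 0.080 in the highest female-like embryo) in the Asx0 table, and for ORY (-0.51 in the highest male-like and -0.53 in the highest female-like embryo) in the SceI48A table. No single embryo stood apart among the 4 male-like Asx0 embryos for any called gene or for the X minus autosome level.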

How the results depend on the processing

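All 24 called genes kept their direction in each alternative that tested them, 29 for each gene except Prosalpha1 with 28, which fell below the mean of 50. The alternatives reuse the embryos that picked the genes, so the kept directions are no independent support. The number called was 102 with a precision weight per embryo, which took in all 24, with 78 on the X, and 1 with a replicate block. It was 0 in the Asx0 table alone (660 genes at an unadjusted p below 0.05), 1 in the SceI48A table alone (337), 0 in wild-type embryos alone (414) and 0 in mutants alone (447), all by limma with fewer embryos. With 1 embryo left out it ran from 1 to 30. No filter, a mean of at least 50, a pseudocount of 5, robust variances, quantile normalization, a cuticle covariate and the marker balance in place of classes gave 23, 23, 24, 23, 21, 31 and 19. For the class by table test, limma called 1 gene with the replicate block and between 0 and 1 with 1 embryo left out, the 1 without replicate 3 of the wild-type embryos beside SceI48A. The X minus autosome difference ran from 0.018 to 0.037. Deviations from the group means of same-numbered embryos in a table correlated between -0.13 and 0.16, with the class not removed. Whether replicate numbers pair embryos was not tested. The causes of these shifts were not tested.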

Other observations

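For the called genes, the uneven share of female-like embryos touched the comparison of Asx0 with its wild-type embryos. For 23 of the 24 called genes the Asx0 minus wild-type difference moved by over 0.1 on the log2 scale when the class entered the model, and for 7 it changed sign. The largest shift was that of Nepl11, where Asx0 minus wild type was 0.96 without the class and 0.65 with it. For ssx it was 0.43 without and 0.20 with the class, for piwi 0.30 without and 0.11 with it, for CG2157 -0.73 without and -0.46 with it, and for tra -0.079 without and 0.076 with it. In the SceI48A table, where 1 of 4 mutant and 1 of 4 wild-type embryos were female-like, the class moved no difference. Equal shares allow no shift in this model, so that result is no separate finding. The size of each shift is set by the gene's class difference in the Asx0 table and by the unequal shares of female-like embryos. These genes were picked for their class difference, so the count of 23 largely restates that choice and the values describe these genes only. No count over all genes tested is given here, so the reach of the shift beyond the called genes was not tested.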
